A study of Ovis aries with 12 samples.

Results

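Integrins are the cell-surface receptors, each made of 1 alpha and 1 beta chain, by which animal cells hold on to extracellular matrix, and laminins are the three-chain (alpha, beta, gamma) proteins of the basement membrane that several integrins bind. The members described here are all genes of the deposited table whose symbol is that of an integrin alpha chain, an integrin beta chain or a laminin chain. The rule found 33 of the 26247 genes of the table: 15 integrin alpha, 7 integrin beta and 11 laminin genes. The rule used symbols and no measured value, though it was set with earlier results of these data known.

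Expression was measured by bulk RNA-seq in 12 libraries of whole sheep (Ovis aries) embryos, 3 in each of 4 groups. The groups were Ujumqin (also spelled Wuzhumuqin) sheep, the control breed, at day 16 and at day 25, and Hulunbuir short-tail sheep, the experimental breed, at day 16 and at day 25. Embryos were dissociated with enzymes before total RNA was isolated, no treatment or engineered allele is named, and the labels do not say whether a library holds 1 embryo or a pool, nor whether embryonic membranes were kept. Whether the 3 libraries of each group are separate animals is not stated, and the p-values therefore measure just the spread between libraries, part of which may be technical.

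In the early embryo laminin is laid down under the first epithelia, where it is assembled into sheets and read by integrins that contain the beta 1 chain. The chains are exchanged as tissues form: some laminins mark embryonic and epithelial membranes, others mark muscle, vessel and nerve. Integrin alpha chains set what a receptor binds, so they fall into laminin-binding, RGD-binding (receptors of fibronectin, vitronectin and related proteins that carry the RGD peptide), collagen-binding, alpha 4 and alpha 9, and leukocyte chains.

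Library totals ran from 43131962 to 55455815 counts at day 16 and from 30464606 to 39643588 at day 25, so depth moved with age, and its part in the age results was not tested. Libraries of 1 group correlated at r = 0.901 to 0.990 across genes. The biological coefficient of variation was 43.7% in the day 16 breed comparison and 18.1% at day 25, so a difference of a given size was less easily called at day 16. Markers of other cell types also moved with the groups. The summed FPKM (fragments scaled to gene length and library size) of 11 epithelium markers was 1904 to 6268 at day 16 and 322 to 683 at day 25, with Ujumqin day 25 replicate 1 at 322 and the other 2 Ujumqin day 25 libraries at 649 and 683. That of 14 muscle markers was 218 to 496 in Ujumqin and 1096 to 2528 in Hulunbuir at day 16, and 685 to 902 and 1065 to 1177 at day 25. That of 16 yolk sac and liver endoderm markers was 24248 to 59046 in Ujumqin and 4392 to 12865 in Hulunbuir at day 16, and 5236 to 8070 and 19963 to 21457 at day 25. That of 11 endothelium markers was 141 to 280 in Ujumqin and 334 to 344 in Hulunbuir at day 16, and 67.1 to 95.3 and 91 to 96.4 at day 25. That of 8 neural markers was 35.8 to 338 at day 16 and 388 to 589 at day 25. The other marker lists were summed likewise: 11 trophoblast genes reached 128 to 640 at day 16 and 43.9 to 90 at day 25, 14 leukocyte genes 61 to 203 and 90.1 to 146, and 9 platelet and megakaryocyte genes 12.7 to 88.3 and 22 to 114. In whole embryos, fewer cells of a type and less RNA per cell cannot be told apart, and the part of cell make-up in the results below was not tested.

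A gene was tested if its FPKM reached 1 in at least 3 of the 12 libraries. Of the 33 members 27 passed: 13 integrin alpha, 4 integrin beta and 10 laminin genes. The other 6 were near the bottom of the scale. ITGAL, the alpha chain of the leukocyte receptor LFA-1, ranged from 0.0001 (the value written for a count of 0) to 0.38 FPKM, and ITGAM, the alpha chain of the myeloid receptor Mac-1, from 0.0001 to 0.0723. ITGB2, the beta chain these leukocyte receptors share, ranged from 0.138 to 1.24 FPKM and was highest in the 3 Hulunbuir day 25 libraries, at 0.989, 1.01 and 1.24. ITGB6, an epithelial chain, ranged from 0.0001 to 0.861, ITGB8 from 0.0264 to 1 and LAMA3, the alpha chain of epidermal laminin, from 0.0001 to 1.19 FPKM. Among the 14 leukocyte markers PTPRC, the defining one, was at 0.337 FPKM or less in each of the 12 libraries, while others were well above 0: LAPTM5 ranged from 15.1 to 77.9 FPKM, CORO1A from 1.56 to 31.7 and CD68 from 2.85 to 34.5.

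**Figure D1:**
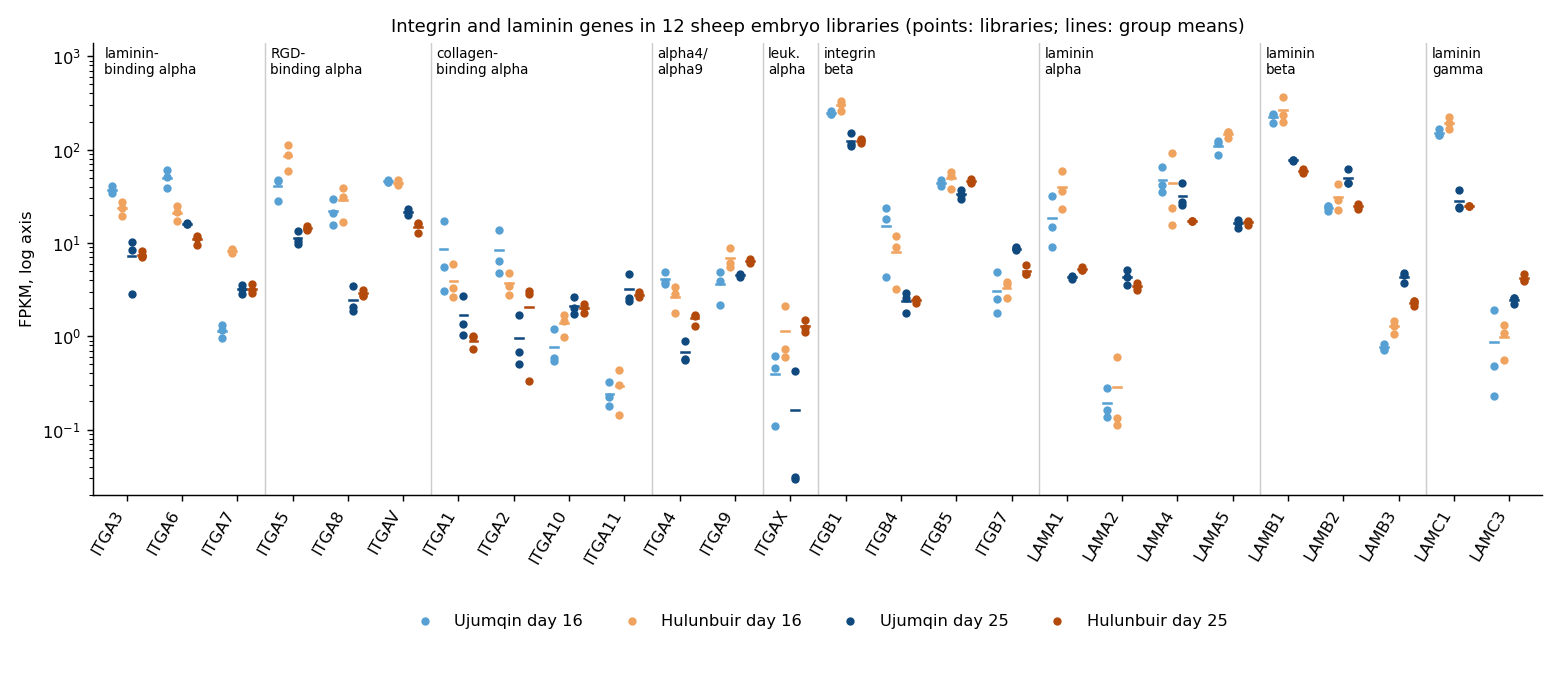
FPKM on a log axis for 26 of the 27 tested integrin and laminin genes, grouped by role; each point is 1 library, each short line a group mean, and colours mark breed and age. ITGB1, LAMB1, LAMC1 and LAMA5 lead at day 16, and most genes sit lower at day 25, whereas ITGA11, LAMA2 and LAMB3 sit higher.

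ITGB1, the beta chain shared by most matrix-binding integrins, was the highest member by mean FPKM in each of the 4 groups, and LAMB1, the beta chain of embryonic laminins, was next. ITGB1 read 242, 239 and 259 FPKM in Ujumqin day 16, 257, 329 and 309 in Hulunbuir day 16, 149, 109 and 115 in Ujumqin day 25 and 129, 118 and 127 in Hulunbuir day 25. All 6 day 16 libraries were above all 6 day 25 libraries, and the breeds overlapped at each age. At day 16 the order in both breeds was ITGB1, LAMB1, LAMC1 and LAMA5, with means of 247, 223, 151 and 111 FPKM in Ujumqin and 298, 266, 194 and 148 in Hulunbuir. ITGB1 and LAMB1 overlapped in Hulunbuir day 16, where LAMB1 read 197, 366 and 235, so their order there is within the spread. At day 25 the order behind ITGB1 and LAMB1 differed: LAMB2 came next in Ujumqin at 50.3 ± 10.3 (SD, n = 3) and ITGB5, a vitronectin receptor chain, in Hulunbuir at 45.6 ± 2.22 (SD, n = 3). In Hulunbuir day 25, LAMC1 at 24.8 ± 0.198 and LAMB2 at 24.6 ± 1.61 (SD, n = 3) did not differ beyond their spread.

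Most integrin and laminin genes were lower at day 25 than at day 16 in both breeds, while a few, led by LAMA2 and ITGA11, were higher. In Ujumqin 22 of the 27 tested members passed the test (edgeR quasi-likelihood test, Benjamini-Hochberg adjusted p under 0.05), 15 lower and 7 higher at day 25. All genes tested gave 59.8% called, 31% lower and 28.8% higher. In Hulunbuir 19 of 27 passed, 15 lower and 4 higher, against 39.1% of all genes, 20% lower and 19% higher. The members' median log2 change was -1.18 in Ujumqin and -1.39 in Hulunbuir, where that of all genes was -0.08 and -0.01. The 2 age comparisons share no library, though same-numbered day 16 libraries of the 2 breeds deviated together (r = 0.156, 0.307 and 0.381) and may be paired. In both, 14 members (51.9% of 27) were called lower, where 15.8% of all genes were, and 3 members (11.1%) were called higher, where 13.2% of all genes were. With library totals in place of TMM scaling (trimmed mean of M-values), the share of called genes that were higher in Hulunbuir at day 25 went from 48.7% to 60.8% over all genes, while 18 of the 19 members stayed called.

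The 3 laminin-binding alpha chains parted by age. ITGA6, the alpha chain of the main epithelial and progenitor laminin receptors, read 38.8, 60.4 and 51.3 FPKM in Ujumqin day 16 and 16.2, 16.1 and 15.9 at day 25, and 21.2, 17 and 25 in Hulunbuir day 16 and 11.4, 9.46 and 11.9 at day 25. In each breed the day 16 libraries lay above the day 25 libraries, and ITGA6 fell by 1.52 ± 0.20 (log2, standard error, adjusted p = 0.000837) in Ujumqin and by 1.06 ± 0.14 (adjusted p = 0.00182) in Hulunbuir. ITGA3, the other epithelial laminin receptor chain, fell by 2.23 ± 0.46 in Ujumqin and by 1.79 ± 0.20 in Hulunbuir. Its Ujumqin day 25 libraries were uneven, at 2.85, 10.2 and 8.44 FPKM, the low one being the library lowest for epithelium markers. ITGA7, the laminin receptor chain known from muscle, rose in Ujumqin by 1.61 ± 0.22 (adjusted p = 0.00104) and fell in Hulunbuir by 1.49 ± 0.17 (adjusted p = 0.00102); it was the single member called in opposite directions, where 1.08% of all genes were.

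All 3 RGD-binding alpha chains fell with age in both breeds. ITGA8, a chain known from kidney and other mesenchyme, fell furthest of them. It read 29.4, 15.6 and 20.8 FPKM in Ujumqin day 16 and 3.42, 1.88 and 2.07 at day 25, and 31.2, 16.8 and 39 in Hulunbuir day 16 and 2.79, 2.71 and 3.12 at day 25. The ages did not overlap in either breed, and the log2 change was -3.04 ± 0.31 (8.22-fold lower) in Ujumqin and -3.42 ± 0.26 (10.7-fold lower) in Hulunbuir. ITGA5, the alpha chain of the classical fibronectin receptor, fell by 1.72 ± 0.21 and 2.76 ± 0.32, and ITGAV, the chain shared by the vitronectin receptors and the activators of latent TGF-beta, fell by 0.97 ± 0.13 and 1.70 ± 0.18. FN1, which encodes fibronectin, went from a mean of 1053 to 141 FPKM in Ujumqin and from 1011 to 87.4 in Hulunbuir, and fell by 2.79 and 3.76 on the log2 scale (adjusted p = 0.00133 and 0.00721).

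The collagen-binding alpha chains moved in both directions. ITGA11, a receptor of fibrillar collagen in mesenchyme and tendon, was scarce at day 16, at 0.326, 0.222 and 0.181 FPKM in Ujumqin and 0.431, 0.142 and 0.3 in Hulunbuir. At day 25 it read 4.62, 2.6 and 2.4 in Ujumqin and 2.96, 2.61 and 2.82 in Hulunbuir, so each day 25 library was above each day 16 library. The rise was 3.82 ± 0.39 (14.1-fold, adjusted p = 0.000396) in Ujumqin and 3.14 ± 0.39 (8.79-fold, adjusted p = 0.0015) in Hulunbuir. ITGA10, a collagen receptor of cartilage, rose in Ujumqin by 1.61 ± 0.35 and did not pass in Hulunbuir (0.40 ± 0.26, adjusted p = 0.263). ITGA1, a receptor that prefers basement membrane collagen, fell in both breeds, by 2.19 ± 0.64 and 2.22 ± 0.31, with Ujumqin day 16 spread over 5.58, 3.02 and 17 FPKM. The Ujumqin call (adjusted p = 0.0227) was lost without Ujumqin day 25 replicate 2 or replicate 3 (up to 0.0814) and with the replicate block (0.0522). ITGA2, an epithelial and platelet collagen receptor, fell in Ujumqin by 3.05 ± 0.58, and its change in Hulunbuir was -0.93 ± 0.68 (adjusted p = 0.305). The breeds' age changes differed by 2.08 ± 0.97, which did not pass (adjusted p = 0.149). The ITGA2 values of Hulunbuir day 25 were uneven, at 3.03, 2.85 and 0.328 FPKM, and without the low library, replicate 3, the difference between the age changes was 2.59 and passed (adjusted p = 0.0388), as did the day 25 breed difference (1.32, adjusted p = 0.0392). The ratio of ITGA11 to ITGA1 FPKM within a library was 0.0106 to 0.163 at day 16 and 1.71 to 4.08 at day 25.

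Of the alpha 4 and alpha 9 chains, which bind VCAM1, fibronectin and tenascin, ITGA4 fell in Ujumqin by 2.47 ± 0.27 (adjusted p = 0.000473) and in Hulunbuir by 0.89 ± 0.29. The Hulunbuir call was marginal: its adjusted p was 0.046, and it was lost in 10 of 15 alternative analyses, with up to 0.156 when replicate 3 of Hulunbuir day 25 was left out. ITGA9 did not pass in either breed (0.45 ± 0.27 and -0.19 ± 0.15), nor did the leukocyte chain ITGAX (-1.18 ± 1.08 and 0.10 ± 0.45).

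Among the beta chains ITGB1 fell by 0.86 ± 0.14 in Ujumqin and by 1.39 ± 0.18 in Hulunbuir. ITGB4, which pairs with ITGA6 in hemidesmosomes, fell by 2.55 ± 0.61 and 1.93 ± 0.50. Its day 16 libraries were uneven, at 23.9, 17.9 and 4.32 FPKM in Ujumqin and 9.01, 12 and 3.2 in Hulunbuir, and the Hulunbuir call (adjusted p = 0.0215) was lost when any of 4 libraries was left out, with up to 0.0816. ITGB7, a beta chain known from lymphocytes, rose in Ujumqin by 1.62 ± 0.40, from 2.48, 4.85 and 1.79 to 8.31, 9.03 and 8.77 FPKM. In Hulunbuir its change was 0.50 ± 0.20 (adjusted p = 0.0908). ITGB5 was the steadiest of the 4 tested beta chains by size of change, at -0.29 ± 0.14 and -0.26 ± 0.23, and did not pass in either breed.

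**Figure D2:**
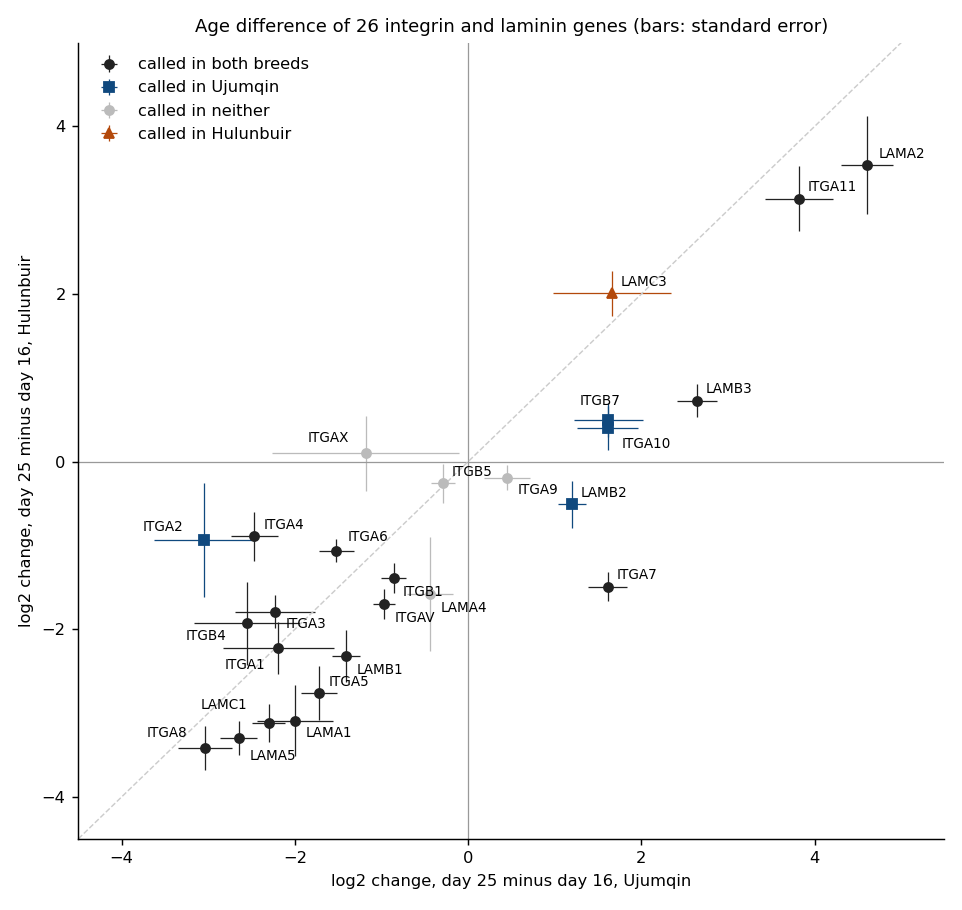
Log2 change from day 16 to day 25 in Ujumqin (x axis) against that in Hulunbuir (y axis) for 26 of the 27 tested genes, with standard errors as bars and a dashed line of equal change. Of all 27, 14 genes were called lower in both breeds and 3 (ITGA11, LAMA2, LAMB3) higher in both. ITGA7, at 1.61 and -1.49, is the single gene called in opposite directions.

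Laminin genes showed the widest range of age differences. LAMA5, the alpha chain of the laminins of most epithelial membranes, read 124, 119 and 88.2 FPKM in Ujumqin day 16 and 14.5, 17.5 and 16.5 at day 25, and 154, 156 and 134 in Hulunbuir day 16 and 17.2, 15.6 and 16.9 at day 25. It fell by 2.65 ± 0.21 (6.29-fold, adjusted p = 0.000235) in Ujumqin and by 3.30 ± 0.20 (9.85-fold, adjusted p = 0.000159) in Hulunbuir. LAMC1, the gamma chain of most laminins, fell by 2.30 ± 0.19 and 3.12 ± 0.23, LAMB1 by 1.41 ± 0.16 and 2.32 ± 0.31, and LAMA1, the alpha chain of the first embryonic laminin, was 4.01-fold and 8.5-fold lower (adjusted p = 0.00742 and 0.00198).

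LAMA2, the alpha chain of muscle and nerve laminin, had the largest rise of the tested members. It read 0.137, 0.161 and 0.279 FPKM in Ujumqin day 16, 0.113, 0.134 and 0.605 in Hulunbuir day 16, 5.11, 3.51 and 4.29 in Ujumqin day 25 and 3.73, 3.15 and 3.38 in Hulunbuir day 25. Every day 25 library was above every day 16 library, and the log2 change was 4.61 ± 0.30 (24.5-fold, adjusted p = 0.00016) in Ujumqin and 3.54 ± 0.58 (11.6-fold, adjusted p = 0.00414) in Hulunbuir. LAMB3, the beta chain of epidermal laminin, rose by 2.64 ± 0.23 in Ujumqin and by 0.73 ± 0.20 in Hulunbuir, the latter with an adjusted p of 0.0241 that missed the threshold without any 1 of the 3 Hulunbuir day 25 libraries and went up to 0.11 without replicate 3. LAMC3, a gamma chain known from nervous tissue, rose in Hulunbuir by 2.01 ± 0.27 (adjusted p = 0.00205), and its change in Ujumqin was 1.66 ± 0.68 (adjusted p = 0.0707). The Ujumqin change passed in 7 of 15 alternatives, among them the replicate block (adjusted p = 0.0275) and the fit without Ujumqin day 16 replicate 3 (2.87, adjusted p = 0.000724), and the breeds' age changes differed by 0.31 ± 0.77 (adjusted p = 0.813). LAMA4, the alpha chain of vessel laminin, did not pass in either breed (-0.44 ± 0.26 and -1.58 ± 0.68). Hulunbuir day 16 replicate 2 read 92.6 FPKM for LAMA4 where the other 2 libraries read 15.7 and 23.6.

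The age difference changed the make-up of the laminin chain pool inside each library, a measure that no scaling between libraries touches. LAMB2, the beta chain of muscle, nerve and kidney laminins, made up 9.33 to 10.8% of the summed laminin beta FPKM in the 6 day 16 libraries. At day 25 its share was 43.4, 35.5 and 35.2% in Ujumqin and 29.8, 29.2 and 26.4% in Hulunbuir, so the ages did not overlap and neither did the breeds at day 25. LAMA5 held 50.7 to 74.9% of the laminin alpha FPKM at day 16 and 21.3 to 39.4% at day 25. LAMA4 held 27.4 ± 11.3% and 16.9 ± 11.7% (SD, n = 3) in Ujumqin and Hulunbuir at day 16, and 54.6 ± 7.98% and 40.1 ± 1.08% at day 25. LAMA2 went from 0.0435 to 0.333% at day 16 to 6.76 to 8.46% at day 25. The LAMC3 share of the gamma chains was 0.159 to 1.3% at day 16, 6.42, 8.03 and 9.53% in Ujumqin day 25 and 13.6, 15.7 and 13.4% in Hulunbuir day 25. The sums themselves were lower at day 25: the laminin alpha sum was 177 and 232 FPKM at day 16 and 57.7 and 42.8 at day 25 in Ujumqin and Hulunbuir, and the integrin alpha sum 223 and 232 against 74.8 and 70.9.

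**Figure D3:**
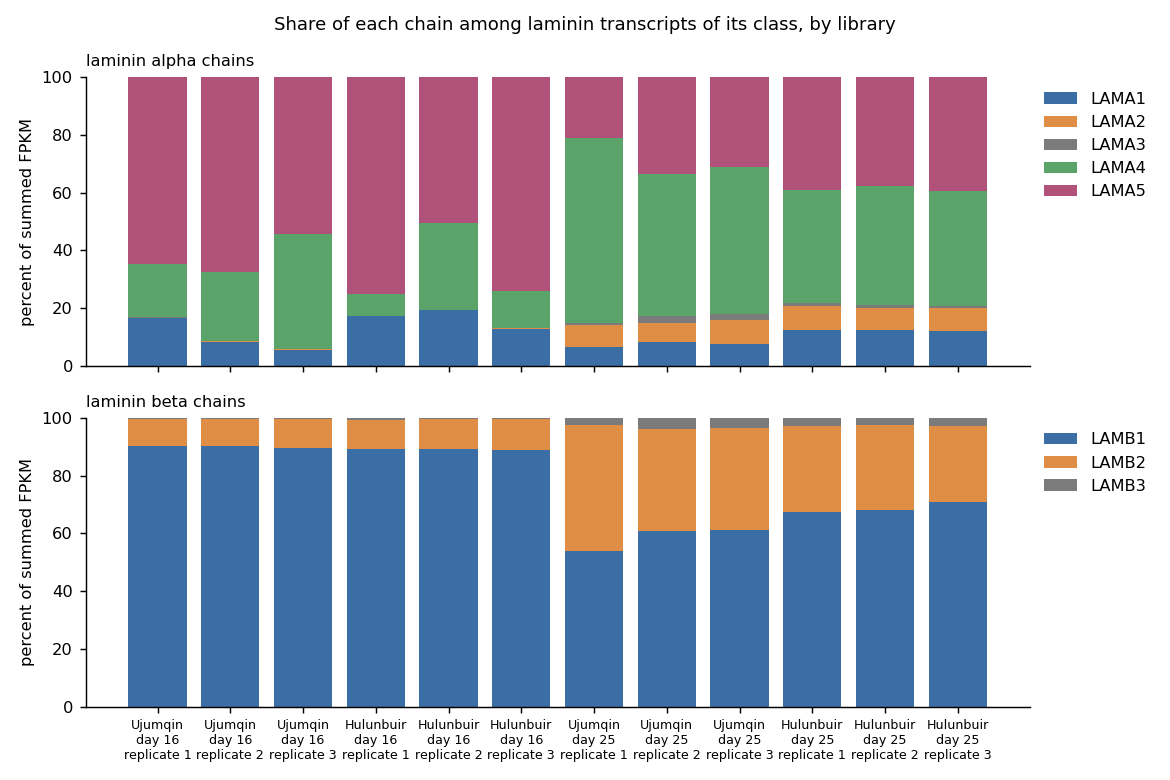
Share of each laminin alpha (top) and beta (bottom) chain in the summed FPKM of its class, in percent, for each of the 12 libraries. LAMB2 holds 9.33 to 10.8% of the beta chains in the day 16 libraries and 26.4 to 43.4% in the day 25 libraries.

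Among the strongest correlations between members over the 12 libraries were those of LAMA5, LAMB1 and LAMC1 with each other and with ITGB1. The correlation of log2(FPKM + 1) was 0.99 for LAMA5 with LAMC1, 0.98 for ITGB1 with LAMC1 and 0.98 for LAMB1 with LAMC1, and it was -0.98 for LAMA2 with LAMA5 and 0.98 for LAMA2 with ITGA11. These are descriptions over 12 points that share 2 ages and 2 breeds.

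At day 16 the breeds differed in 1 of the 27 tested members, ITGA7, against 0.0206% of all genes (3 genes). ITGA7 (ENSOARG00000011427, Oar_v3.1 chromosome 3, 163469104 to 163492706, plus strand) read 1.18, 0.958 and 1.31 FPKM in Ujumqin day 16 and 7.86, 8.43 and 8.56 in Hulunbuir day 16. Each Hulunbuir library was several times above each Ujumqin library, and at day 25 the breeds overlapped, at 3.23, 2.85 and 3.54 in Ujumqin and 3.64, 2.93 and 3.11 in Hulunbuir. The day 16 difference was 2.79 ± 0.22 on the log2 scale (6.9-fold higher in Hulunbuir, adjusted p = 0.0259). The call was lost in 7 of 15 alternative analyses: with limma on FPKM, and without any 1 of the day 16 libraries other than Ujumqin replicate 3, with adjusted p up to 0.246, while its log2 difference stayed between 2.11 and 2.86. With the replicate number as a block, the count of all genes called went from 3 to 395, and that of members stayed at 1, ITGA7. The muscle marker sum given above was likewise higher in each Hulunbuir day 16 library than in each Ujumqin one. ACTC1, a cardiac actin, read 113, 43.4 and 139 FPKM in Ujumqin and 567, 381 and 811 in Hulunbuir (5.62-fold, adjusted p = 0.096), and NKX2-5, a cardiac transcription factor, 4.35, 1.53 and 3.4 against 23.9, 16.3 and 36.8 (7.72-fold, adjusted p = 0.096), while DES, an intermediate filament gene of muscle, overlapped (56.1, 18.9 and 68.3 against 95.3, 65.4 and 157). None of the 13 tested muscle markers passed edgeR's test, and 8 had an unadjusted p under 0.05, where 20.3% of all genes did. The endothelium marker sum was also higher in each Hulunbuir day 16 library than in each Ujumqin one. The part of muscle or other cells in the ITGA7 difference was not tested.

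Of the other 26 members 0 passed edgeR's test at day 16, and 6 of them had an unadjusted p under 0.05, in a comparison where 20.3% of all genes did. These were ITGA3 (-0.72 ± 0.24), ITGA6 (-1.34 ± 0.24), ITGA2 (-1.31 ± 0.43), ITGA4 (-0.71 ± 0.29), ITGA5 (1.07 ± 0.36) and ITGA9 (0.82 ± 0.30). ITGA6 came nearest, with an adjusted p of 0.096 and Ujumqin libraries (38.8, 60.4 and 51.3 FPKM) all above the Hulunbuir ones (21.2, 17 and 25). DESeq2, limma-voom with group weights and the fit of all 12 libraries each called ITGA6 lower in Hulunbuir, and called 3, 2 and 5 members in all. The 10 laminin genes had log2 differences from -0.07 (LAMA4) to 1.05 (LAMA1) and a median of 0.36, and 0 of them had an unadjusted p under 0.05. DESeq2 and both uses of limma also called 0 laminin genes, and the fit of all 12 libraries called 1, LAMB3.

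The tested genes that most resembled ITGA7 over the 12 libraries, by Pearson correlation of log2(FPKM + 1), were SLC12A9, THBS4 and RTEL1 (each r = 0.94), NOTCH4 and TONSL (0.93), and FAM189B, SUN1 and PRRT2 (0.92). THBS4 averaged 7.06 FPKM in Ujumqin day 16, 32.9 in Hulunbuir day 16, 18 in Ujumqin day 25 and 12.6 in Hulunbuir day 25. The 8 genes were all highest on average in Hulunbuir day 16 and lowest in Ujumqin day 16, as ITGA7 was. They were chosen for their correlation with ITGA7 over these same libraries, so the shared order follows from the choice.

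At day 25 the breeds differed in 15 of 27 members, 12 lower and 3 higher in Hulunbuir, against 46% of all genes (22.7% lower, 23.3% higher). The members' median log2 difference was -0.32, that of all genes 0.03, and that of the 10 laminin genes -0.58. The balance of directions rests on the scaling: with library totals in place of TMM the median of all genes moved from 0.03 to 0.35 and the share of all calls that were higher in Hulunbuir from 50.6% to 80.3%. Under that scaling 14 members were called, with ITGA1, LAMA5, LAMA2, ITGB1 and LAMC1 lost and LAMA1, ITGA9, ITGA5 and ITGB5 called higher in Hulunbuir. FPKM carry no TMM scaling, so groups may overlap in FPKM where the fit called a difference. In a fit of all 12 libraries 5 members were called at day 25: ITGA6, ITGAV, ITGB7, LAMB2 and LAMB3.

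LAMB2 (ENSOARG00000014559, chromosome 19, 50828962 to 50841070) had the smallest adjusted p of the laminins. It read 62.1, 44.4 and 44.2 FPKM in Ujumqin day 25 and 26.4, 24.1 and 23.3 in Hulunbuir day 25, with no overlap, and was lower in Hulunbuir by 1.35 ± 0.11 on the log2 scale (2.55-fold, adjusted p = 7.3e-05). LAMB3 read 3.68, 4.78 and 4.54 against 2.37, 2.13 and 2.37 (2.38-fold lower, adjusted p = 0.000396), and LAMB1 77.4, 76 and 76.7 against 59.7, 56.4 and 62.4 (1.62-fold lower, adjusted p = 0.000202). All 3 beta chains were called lower in Hulunbuir without overlap, where 22.7% of all genes were called lower. How many of all genes had no overlap between the breeds was not counted. LAMA4 read 43.4, 25.5 and 27.2 in Ujumqin and 17.2, 17 and 17.2 in Hulunbuir (2.32-fold lower, adjusted p = 0.000525), and LAMA2 was lower by 0.65 ± 0.12. LAMC1 was lower by 0.51 ± 0.13, and its FPKM overlapped (36.7, 24.4 and 23.9 against 25, 24.6 and 24.8), as did that of LAMA2. The calls of LAMA2 and LAMC1 were each lost in 4 of 15 alternatives, with adjusted p up to 0.315 and 0.435. LAMA5 passed barely (-0.29 ± 0.11, adjusted p = 0.049), was lost in 11 of 15 alternatives and had a difference of 0.03 with library totals, so its direction is not settled. LAMC3 was the single laminin called higher in Hulunbuir, at 2.54, 2.19 and 2.59 against 4.04, 4.7 and 3.89 FPKM (0.46 ± 0.13, adjusted p = 0.018). Leaving out replicate 2 of either breed ended the call, with adjusted p up to 0.0787. Voom with group weights (0.0979) and the fit of all 12 libraries (0.633) ended it too.

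Among the integrins at day 25, ITGA6 was lower in Hulunbuir by 0.89 ± 0.09 (adjusted p = 0.000188), at 16.2, 16.1 and 15.9 FPKM in Ujumqin and 11.4, 9.46 and 11.9 in Hulunbuir. ITGAV read 23, 19.9 and 21.4 against 15.8, 12.8 and 16.4 (-0.84 ± 0.10, adjusted p = 0.000304) and ITGB7 8.31, 9.03 and 8.77 against 5.86, 4.65 and 4.69 (-1.11 ± 0.13, adjusted p = 0.000313). Each of these 3 was called in all 15 alternatives and had no overlap between breeds. ITGA1 was lower by 1.22 ± 0.33 (adjusted p = 0.0168). Its call was lost in 5 of 15 alternatives, with 0.0656 without Hulunbuir replicate 1 and up to 0.137 with limma on log2(FPKM + 0.1). ITGB1 was called lower by 0.32 ± 0.10 (adjusted p = 0.0278), but its FPKM overlapped and limma on FPKM gave a difference of 0.02. Its call was lost without any 1 of the 3 Hulunbuir libraries, with up to 0.0982. ITGA3, ITGB4 and ITGA10 did not pass (adjusted p = 0.573, 0.21 and 0.0839). Without Ujumqin day 25 replicate 1, the library lowest for epithelium markers, all were called lower in Hulunbuir. Their differences were then -0.68, -0.54 and -0.48 (adjusted p = 0.000654, 0.00283 and 0.0432).

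ITGA4 and ITGAX were higher in Hulunbuir at day 25. ITGA4 read 0.899, 0.561 and 0.572 FPKM in Ujumqin and 1.66, 1.71 and 1.29 in Hulunbuir (0.87 ± 0.25, adjusted p = 0.0207); leaving out Ujumqin replicate 2 or 3, or Hulunbuir replicate 1 or 2, ended the call, with up to 0.0787. ITGAX, the alpha chain of a receptor of dendritic cells and macrophages, read 0.421, 0.0311 and 0.0295 against 1.51, 1.11 and 1.24 (2.68 ± 0.76, adjusted p = 0.0199). Its call was lost without Hulunbuir replicate 1 (0.0625) and in the fit of all 12 libraries (0.0691). Both genes were low and did not overlap between breeds. The leukocyte marker sum was 90.1 to 104 FPKM in Ujumqin and 142 to 146 in Hulunbuir at day 25. Single markers went both ways. CSF1R, the receptor that defines macrophages, read 0.592, 0.546 and 0.948 in Ujumqin against 3.22, 2.89 and 2.8 in Hulunbuir. CD68 read 31.8, 29 and 34.5 against 17.4, 15.7 and 19.5, and PTPRC was at 0.267 or less. Of the 13 tested leukocyte markers 5 were called higher and 1 lower, 46.2% called, near the 46% of all genes. The part of leukocytes in these differences was not tested.

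**Figure D4:**
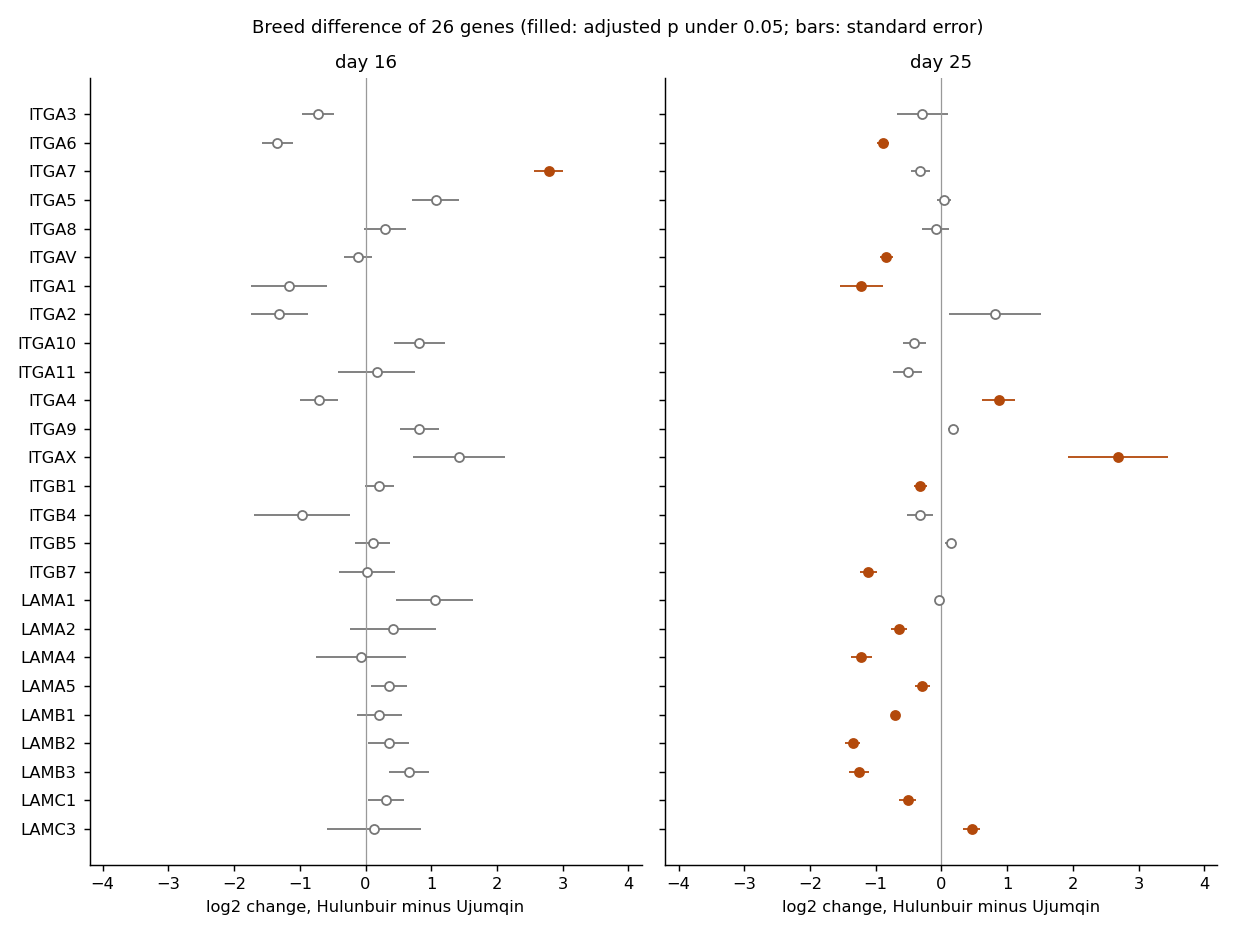
Log2 difference between breeds, Hulunbuir minus Ujumqin, for 26 of the 27 tested genes at day 16 (left) and day 25 (right); filled points passed the test and bars are standard errors. ITGA7 is the single filled point at day 16, at 2.79; at day 25, 12 of the 15 filled points lie below 0, a balance that shifts with the scaling.

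The breed difference changed between the ages in 5 of 27 members (test of the breed by age interaction over 12 libraries), against 19.2% of all genes (8.89% higher, 10.3% lower). With library totals 4 of these 5 members stayed called and the share of all calls that were higher went from 46.3% to 73.2%. ITGA7 had the largest such change, -3.15 ± 0.25 (adjusted p = 0.000139): it was 6.9-fold higher in Hulunbuir at day 16, and its day 25 difference was -0.32 ± 0.14. LAMB2 changed by -1.76 ± 0.36 (adjusted p = 0.0087). It was 24.6, 24.6 and 22.1 FPKM in Ujumqin day 16 and 22.8, 42.7 and 28.6 in Hulunbuir day 16, overlapping, then rose with age in Ujumqin by 1.20 ± 0.16 and did not pass in Hulunbuir (-0.51 ± 0.28, adjusted p = 0.188). LAMB3 changed by -1.95 ± 0.27 (adjusted p = 0.00145), from 0.719, 0.817 and 0.739 in Ujumqin and 1.3, 1.05 and 1.47 in Hulunbuir at day 16 to the day 25 values above. Its breed order at day 25 was the reverse of that at day 16, where the difference of 0.66 ± 0.31 did not pass.

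ITGA4 changed the other way, by 1.53 ± 0.39 (adjusted p = 0.0212). Its day 16 values were 3.8, 3.65 and 4.94 FPKM in Ujumqin and 1.77, 2.84 and 3.35 in Hulunbuir, so Ujumqin was higher in each library at day 16 and lower in each at day 25. ITGAV changed by -0.77 ± 0.22 (adjusted p = 0.032), with the breeds overlapping at day 16 (45.3, 47.1 and 45.1 against 44.4, 46.8 and 41.4). The calls for ITGA7, LAMB2 and LAMB3 were kept in all 20 alternatives, that for ITGA4 in 17 of them, and that for ITGAV in 7. ITGA4 lost its call without Ujumqin day 25 replicate 3, Hulunbuir day 25 replicate 1 or Hulunbuir day 25 replicate 2, with adjusted p up to 0.0553. Without Hulunbuir day 16 replicate 3 the interaction count went from 5 to 9 members, and without any of the 3 day 25 libraries just named it was 3.

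**Figure D5:**
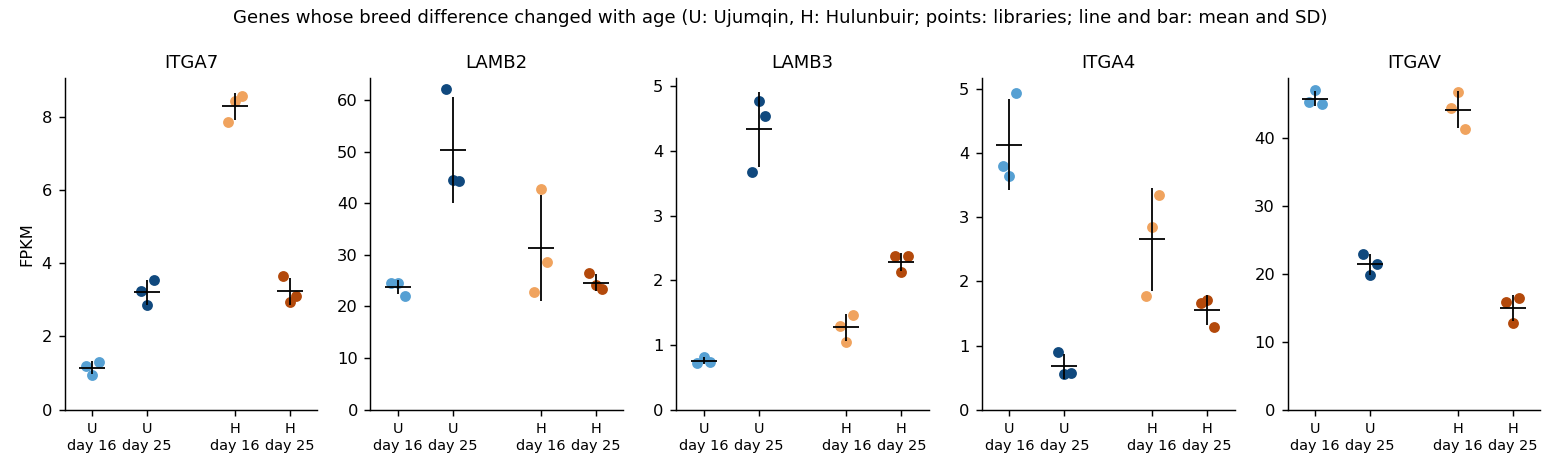
FPKM of the 5 genes whose breed difference changed with age, by breed and age; points are libraries, and the line and bar are the mean and SD of 3 libraries. ITGA7 is high in the 3 Hulunbuir day 16 libraries (7.86 to 8.56), and LAMB2 is high in the 3 Ujumqin day 25 libraries (44.2 to 62.1).

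The genes that surround these receptors were read from 3 lists of partners. Of 23 tested basement membrane partners, which bind laminin or build the same sheet, 16 were lower and 1 higher at day 25 in Ujumqin (73.9% called, against 59.8% of all genes), and 19 were lower and 2 higher in Hulunbuir (91.3%, against 39.1%), with medians of -2.01 and -2.38. COL4A1 and COL4A2, the main type IV collagen chains, averaged 604 and 314 FPKM in Ujumqin day 16 and 134 and 58 at day 25. NID1, which links laminin to type IV collagen, averaged 123 and 12.2 in Ujumqin and 143 and 10.2 in Hulunbuir, and fell by 3.23 and 4.02 on the log2 scale (adjusted p = 0.000898 and 0.0038). FRAS1 and FREM2, epithelial membrane proteins that work as 1 complex, fell by 3.50 and 3.12 in Ujumqin and by 3.02 and 3.50 in Hulunbuir. At day 25, 12 of the 23 were lower in Hulunbuir and 3 higher (65.2% called, against 46% of all genes), among them COL4A5 and COL4A6 (-1.53 and -1.67) and SMOC2 (-1.64) lower and NTN1, a laminin-related guidance protein, higher (2.10, adjusted p = 0.000281); with library totals in place of TMM the split was 7 lower and 4 higher, and in a fit of all 12 libraries 5 were called. At day 16, 0 passed edgeR's test and 2 had an unadjusted p under 0.05, where 20.3% of all genes did. DESeq2 called 1 of the 23, and 1565 of all 14595 genes tested.

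Of 28 tested integrin ligands other than laminins and collagens, 10 were lower and 7 higher with age in Ujumqin, and 13 lower and 3 higher in Hulunbuir. The share called was 60.7% in Ujumqin, near the 59.8% of all genes, and 57.1% in Hulunbuir, against 39.1%. POSTN, a matrix protein of connective tissue, averaged 51.2 and 514 FPKM at day 16 and day 25 in Ujumqin and rose by 3.46 (adjusted p = 0.00118), whereas in Hulunbuir it averaged 116 and 201 (0.74, adjusted p = 0.18). FBLN5, an elastic fibre protein, rose in both breeds (3.40 and 3.23). VTN, which encodes vitronectin, the RGD ligand of ITGAV receptors, averaged 2.98, 0.401, 4.37 and 39.4 FPKM in Ujumqin day 16, Hulunbuir day 16, Ujumqin day 25 and Hulunbuir day 25, and FGG, a fibrinogen chain, 217, 58, 10.8 and 61. Both are liver products, and the yolk sac and liver marker sum given above, whose list holds FGG, was likewise higher in Hulunbuir at day 25; its part was not tested. At day 25, 13 of the 28 were lower in Hulunbuir and 4 higher (60.7% called, against 46% of all genes), a split that was 8 and 8 with library totals, and in a fit of all 12 libraries 6 were called. At day 16, 0 passed edgeR's test and 10 had an unadjusted p under 0.05, where 20.3% of all genes did. The replicate block called 1 of the 28, voom with group weights 3, DESeq2 8 and the fit of all 12 libraries 10. Of all 14595 genes tested, these alternatives called 395, 487, 1565 and 2459 in that order.

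Of 50 tested cytoplasmic partners, which couple integrins to actin and to signalling, 29 were lower and 8 higher with age in Ujumqin (74% called, against 59.8% of all genes), and 22 lower and 4 higher in Hulunbuir (52%, against 39.1%), with medians of -0.94 and -0.41. ILK, a core adaptor of integrin adhesions, did not pass in any of the 5 comparisons and averaged 127, 122, 104 and 137 FPKM in Ujumqin day 16, Hulunbuir day 16, Ujumqin day 25 and Hulunbuir day 25. KANK1, which links adhesions to the cell cortex, fell in both breeds (-2.27 in Ujumqin, -1.81 in Hulunbuir). FERMT3, the kindlin of blood cells, fell in Ujumqin by 1.88 and rose in Hulunbuir by 1.97, averaging 18.7 and 4.56 FPKM in the one and 3.25 and 14 in the other. At day 25, 15 of the 50 were higher in Hulunbuir and 8 lower, with a median of 0.12, and the 46% called equals the share of all genes; with library totals 30 were higher and 3 lower, and in a fit of all 12 libraries 10 were called. At day 16, 0 of the 50 passed edgeR's test and 11 had an unadjusted p under 0.05 (against 20.3% of all genes). The replicate block called 4 of the 50 and DESeq2 10, where they called 395 and 1565 of all 14595 genes tested.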

How the data were processed

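RNA-seq of 12 embryo libraries was analysed from 1 deposited table of counts and FPKM for 26247 genes. Per the labels' protocols, Illumina libraries were made from TRIzol-purified total RNA; per the submitters' processing notes, cutadapt 1.9, FastQC and the Oar_v3.1 genome were used. For the aligner, the counter and the use of strand, the entry is: not given in the sources used here. Per the file headers, the deposited values are counts per gene and library, which were found to be whole numbers (whether of reads or fragments: not given in the sources used here), and the deposited FPKM values were computed by the authors, with 0.0001 standing for a count of 0. A floor of 3 counts equals 0.0541 to 0.0985 CPM in a library. A symbol missing from the table was taken from a RefSeq gene table for 1300 genes, for names alone.

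The 14595 genes whose FPKM reached 1 in 3 or more libraries were tested with edgeR 4.0.16 in R 4.3.3 (TMM, quasi-likelihood fit and test, two-sided, Benjamini-Hochberg adjustment over all genes tested, threshold 0.05). Each comparison was fitted on the 6 libraries it concerns, and the interaction on all 12. Standard errors were obtained from each F statistic, as the size of the log2 change over the root of F. Age and breed comparisons share libraries, so their values are given side by side. Members were named if called in any comparison or among the 2 highest by mean FPKM in their role class, and the untested members by name and range; of each partner list, at most 2 called genes a direction and comparison with the largest change and 2 uncalled ones with the highest mean could be named. The members, partner lists and marker lists were chosen with earlier results of these data known. Alternatives used DESeq2 1.42.0, limma 3.58.1 (voom with group weights, and log2(FPKM + 1) or log2(FPKM + 0.1)), other scalings, no filter, a replicate block and leaving out each library.

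Same-numbered day 16 libraries of the 2 breeds deviated together from their group means (r = 0.156, 0.307 and 0.381 across genes). By this correlation rule the day 16 numbers may pair libraries, but no label says what a number stands for. The main fits left the number out, so the day 16 results above take no account of such pairing. With the number as a block, 395 genes in place of 3 were called at day 16, and ITGA7 stayed the 1 member called. Libraries of a group differed by more than sampling noise (chi-square per degree of freedom 17.6 to 644.6, and 17.6 to 22.1 in Hulunbuir day 25). All were counted as replicates, though this measure cannot show whether they are separate animals. The labels give no sequencing batch. The values of 1 member and 1 partner gene are not reported here, though both stay in the counts.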

Additional observations from a re-analysis of the deposited data

Results flagged for a closer look

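In 5 of the 27 tested members the breed difference at day 25 departed from that at day 16 by a test of the difference itself (edgeR interaction test, adjusted p under 0.05). That is 18.5% of the members, near the 19.2% of all genes called by the same test. On the log2 scale the change of the Hulunbuir minus Ujumqin difference from day 16 to day 25 was -3.15 for ITGA7, -1.95 for LAMB3, -1.76 for LAMB2, -0.77 for ITGAV and 1.53 for ITGA4. In ITGA7 the 3 Hulunbuir day 16 libraries (7.86, 8.43 and 8.56 FPKM) stood above the other 9. In LAMB2 the 3 Ujumqin day 25 libraries (62.1, 44.4 and 44.2 FPKM) stood above the other 9. In LAMB3 and ITGA4 the breeds were in opposite order at the 2 ages with no overlap at either. The ITGAV change was called in 7 of 20 alternatives.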

How the results depend on the processing

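The count of members called for the breed difference at day 16 (1) was 5 in a fit of all 12 libraries, 3 with DESeq2, 2 with voom and group weights, 0 with limma on log2(FPKM + 1) and 0 on log2(FPKM + 0.1), and 0 to 1 when 1 library was left out. Over all genes the day 16 count of 3 was 2459, 1565, 487, 0 and 0 under the same alternatives in that order, 4 without a filter, 2 with library totals and 0 to 231 when 1 library was left out. At day 25 the count of 15 members was 5 in a fit of all 12 libraries, where 2440 genes in place of 6716 were called, and 10 to 18 when 1 library was left out. The interaction count of 5 was 10 with DESeq2 and 3 to 9 when 1 library was left out; the all-gene interaction count of 2804 was as low as 1561. The age counts of 22 and 19 stayed at 20 to 24 and 15 to 20, and the all-gene Hulunbuir age count of 5701 was as low as 2903. The cause of these shifts was not tested.

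LAMA5 at day 25 changed sign with library totals (0.03) and with limma on log2(FPKM + 1) or log2(FPKM + 0.1) (0.04 in each), and ITGB1 changed sign under both limma fits (0.02 in each). Of 62 calls of single members, 43 were kept under every alternative.

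Where the replicate numbers were shared but paired nothing by the correlation rule, the replicate block gave 14 members at day 25, 22 for age in Ujumqin, 17 for age in Hulunbuir and 4 for the interaction; at day 16 the block gave 1. The block ended the calls of LAMA5 at day 25, ITGA1 for age in Ujumqin, LAMB3 and ITGA4 for age in Hulunbuir and ITGAV for the interaction. Under the block 1 more member, LAMC3, was called for age in Ujumqin.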

Other observations

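Integrin genes known in the table by description alone, and so outside the symbol rule, gave these values. A row described as integrin beta 3, the beta chain of the platelet fibrinogen receptor (ENSOARG00000011855), read 10.2, 11.7 and 34.9 FPKM in Ujumqin day 16, 1.89, 3.77 and 5.87 in Hulunbuir day 16, 1.45, 1.34 and 1.48 in Ujumqin day 25 and 1.74, 2.16 and 2.14 in Hulunbuir day 25. It fell with age in Ujumqin by 3.57 ± 0.49 on the log2 scale (adjusted p = 0.00103), and its breed difference changed between the ages by 2.49 ± 0.63 (adjusted p = 0.0204). The summed FPKM of 9 platelet and megakaryocyte markers was 26.6, 29.4 and 88.3 in Ujumqin day 16 and 12.9, 18.7 and 12.7 in Hulunbuir day 16. At day 25 that sum was 22, 27.2 and 24.5 in Ujumqin and 106, 114 and 109 in Hulunbuir. The part of these cells in the integrin beta 3 values was not tested. A row described as integrin alpha 2b bears the symbol of another gene, GPATCH8, so its reads may belong to either; it read 9.97 to 18 FPKM in Ujumqin day 16, 7.81 to 12.9 in Hulunbuir day 16, 5.12 to 6.2 in Ujumqin day 25 and 10 to 11.4 in Hulunbuir day 25. A row described as integrin alpha D stayed at 0.237 FPKM or less.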
